A study of Mus musculus with 4 samples.

Results

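The 9 genes described here encode the signalling chains of the T cell receptor, the kinases that act on them and the adaptors that carry the signal onward. They are Cd3d, Cd3e, Cd3g and Cd247 (the CD3 delta, epsilon and gamma chains and the zeta chain), the kinase genes Lck and Zap70, and the adaptor genes Lat, Lcp2 (SLP-76) and Grap2 (GADS). They were chosen by name, with earlier results of these data known, as the receptor module that leads to SLP-76 and its partner GADS. SLP-76 is the substrate of the kinase that was knocked out. All 9 were found among the 21146 genes of the deposited table. RNA had been sequenced from T cells that had infiltrated a tumour, in 2 libraries from HPK1-/- mice (labelled KO) and 2 from wild-type mice (WT), all C57BL/6 and all taken 21 days after tumour inoculation. HPK1, also called MAP4K1, is a serine/threonine kinase of blood cells. Neither the kind of tumour, nor the knockout allele, the gate or the ages of the mice are given in the labels, and the RNA extraction step speaks of infiltrating cells without naming T cells. Nothing says that replicates are separate animals, and the p-values may therefore reflect technical spread alone.

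When the receptor binds antigen, Lck phosphorylates paired tyrosines in the tails of the CD3 and zeta chains, and ZAP-70 docks on them and is switched on. ZAP-70 then phosphorylates LAT, a membrane scaffold, and SLP-76, which GADS holds on LAT, so that phospholipase C gamma 1 and VAV1 gather at a single site. HPK1 is recruited to this assembly and phosphorylates SLP-76. The phosphorylated SLP-76 binds 14-3-3 proteins and is lost from the complex, which is how HPK1 acts as a brake. All of this is regulation of proteins, and the measurements here are of transcripts.

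The values were FPKM, fragments scaled to transcript length and library size, which are per length and so can be compared between genes. Steps between the lowest values gave an approximate scale of 22500000 and 23300000 fragments in the KO libraries and 21600000 and 20300000 in the WT libraries. Across the 11947 genes that reached 1 FPKM in 2 or more libraries, log2 values correlated at 0.991 between the KO libraries, at 0.986 between the WT libraries and at 0.958 to 0.964 across genotypes. Map4k1, the targeted gene, was at 20.6 and 26.5 FPKM in KO libraries and 48.9 and 41.1 FPKM in WT libraries. Its transcript fell but remained (log2 fold change -0.91, SE 0.15, limma adjusted p = 0.0134), and the call was lost without KO replicate 1 (adjusted p = 0.0634) and without the filter on low values (adjusted p = 0.0764). A value per gene does not show whether the remaining RNA covers the deleted part, so this level, and any ratio made from it, is of RNA from the locus and not of working kinase. Genes that define T cells were abundant, with summed FPKM of 2591 and 2610 in KO and 2854 and 2575 in WT over 7 genes from Trac to Thy1. Cd8a, a chain of the CD8 coreceptor, was at 184 and 189 FPKM in KO and 208 and 212 FPKM in WT, far above Cd4, at 18 and 15.6 FPKM in KO and 14.9 and 15.1 FPKM in WT. In bulk samples fewer cells of a type and less RNA per cell cannot be told apart.

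All 9 genes were among the abundant transcripts of every library, between percentiles 83.2 and 97.1 of the genes at 1 FPKM or more. Grap2 and Lck were higher in the KO libraries and Cd3d was lower, and the other 6 genes did not pass the threshold (limma on log2(FPKM + 1), Benjamini-Hochberg adjusted p under 0.05 over all 11947 genes). These 3 of 9 genes are 33.3%, beside 28.4% of all genes tested, so the share is near the background. For higher calls the counts were 2 of 9 beside 15.4% of all genes, and for lower calls 1 of 9 beside 13.0%. The KO and WT libraries did not overlap for 8 of the 9 genes, where 70.0% of all genes tested had no overlap. KO was the higher in 5 of these, beside 38.6% of all genes, and the lower in 3, beside 31.4%. The median log2 fold change of the 9 genes was 0.18, and that of all genes tested was 0.04. With 2 libraries against 2, an exact two-sided permutation test of a single gene cannot go below p = 0.333, which was the value for the 8 genes without overlap, so the calls rest on the variance that limma shares between genes.

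**Figure D1:**
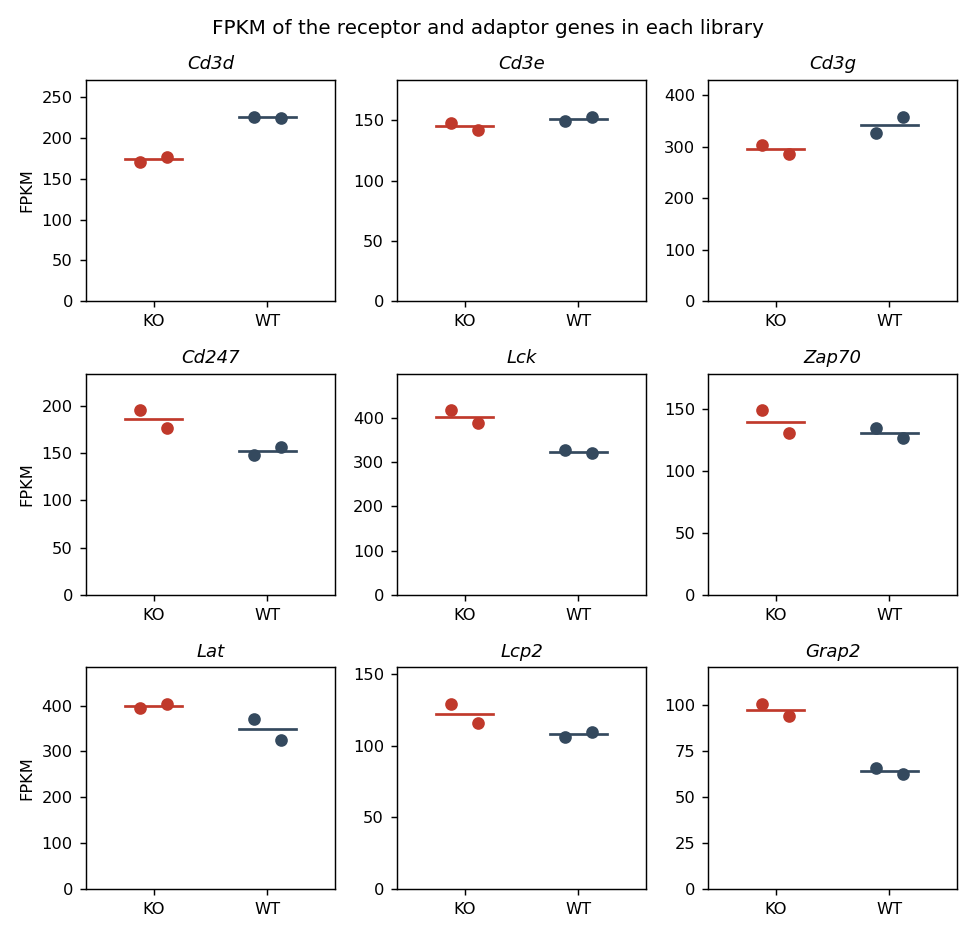
FPKM of each of the 9 genes, with 1 point per library, KO left of WT, replicate 1 left of replicate 2, and a line at the mean of 2 libraries; each y axis starts at 0. Grap2 lies at 100.5 and 93.9 FPKM in KO and 65.6 and 62.7 FPKM in WT, Cd3d lies lower in KO, and Zap70 is the gene whose libraries overlap.

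The CD3 delta, epsilon and gamma chains pair as epsilon-delta and epsilon-gamma, and their genes form a cluster on chromosome 9. Cd3d (ENSMUSG00000032094, GRCm38 chr9:44981786-44987339, plus strand, protein coding, as are all 9 genes) was at 171 and 177 FPKM in KO libraries and 226 and 224 FPKM in WT libraries. Both KO values lay below both WT values, by far more than the gap within either pair. Its log2 fold change was -0.37 (SE 0.07, 95% interval -0.55 to -0.19, adjusted p = 0.0201), a mean 0.773 times that of WT. The call was lost without KO replicate 1 (adjusted p = 0.174), without KO replicate 2 (adjusted p = 0.115), and when libraries were scaled to equal totals (log2 fold change -0.21, adjusted p = 0.0707) or to an equal mean of the 4 chain genes (log2 fold change -0.28, adjusted p = 0.0617).

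Cd3g (ENSMUSG00000002033, chr9:44969572-44980431, minus strand) was at 304 and 285 FPKM in KO libraries and 326 and 358 FPKM in WT libraries. It is the most abundant of the CD3 genes, and its KO values were lower without overlap, but it did not pass (log2 fold change -0.21, 95% interval -0.43 to 0.00, adjusted p = 0.121). Cd3e (ENSMUSG00000032093, chr9:44998740-45009627, minus strand), whose chain is shared by both CD3 pairs, was at 148 and 142 FPKM in KO libraries and 149 and 153 FPKM in WT libraries. These values lay close together, the log2 fold change was -0.06 (95% interval -0.24 to 0.13, adjusted p = 0.594), and its sign turned under equal totals, at 0.10, and under an equal mean of the chain genes, at 0.03. The intervals of Cd3d and Cd3e overlap, and the difference between these genes was not tested.

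Cd247 (ENSMUSG00000005763, chr1:165788681-165877277, plus strand) encodes the zeta chain, which carries more of the paired tyrosines than any CD3 chain and joins the receptor last. It was at 195 and 177 FPKM in KO libraries and 148 and 156 FPKM in WT libraries. Both KO values were higher, opposite to the 3 CD3 genes, but it missed the threshold (log2 fold change 0.29, SE 0.08, 95% interval 0.07 to 0.50, adjusted p = 0.0566). Under equal totals it passed, at a log2 fold change of 0.45 (adjusted p = 0.0144), and under an equal mean of the chain genes at 0.37 (adjusted p = 0.0258), and without KO replicate 1 its adjusted p was 0.347. Several genes are annotated within or across the span of Cd247 on the other strand, the most abundant being Pou2f1, at 7.43 and 7.26 FPKM in KO and 4.23 and 5.12 FPKM in WT. The strand setting of the counting was not given in the sources used here.

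Ratios within a library do not depend on how libraries are scaled to each other. The zeta gene made up 23.8% and 22.6% of the summed FPKM of the 4 chain genes in KO libraries and 17.5% in each WT library. Cd3d made up 20.9% and 22.7% in KO and 26.6% and 25.2% in WT. Cd3g gave 37.2% and 36.5% in KO and 38.4% and 40.2% in WT, and Cd3e 18.1% and 18.2% in KO and 17.5% and 17.2% in WT. The mixture thus held more Cd247 and less Cd3d in both KO libraries, while the sum of the 4 genes was 818 and 782 FPKM in KO and 849 and 891 FPKM in WT. The ratio of Cd247 to Cd3d was 1.14 and 0.995 in KO libraries and 0.656 and 0.693 in WT libraries. These ratios are descriptions of chosen genes and were not tested.

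**Figure D2:**
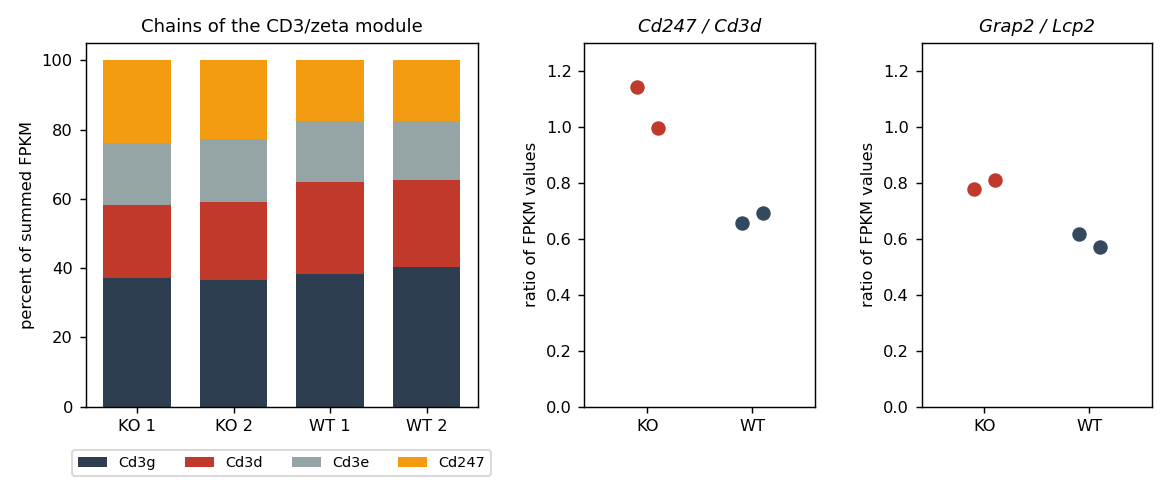
Left, stacked bars of the share of Cd3g, Cd3d, Cd3e and Cd247 in their summed FPKM, in percent, for each library. Middle and right, the ratios of Cd247 to Cd3d and of Grap2 to Lcp2, 1 point per library on axes from 0; both ratios are higher in the 2 KO libraries than in the 2 WT libraries.

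Cd3g and Cd3d are read away from each other, and their annotated starts lie 1355 bases apart. The window around each start is shown because Cd3d was called lower and its neighbour Cd3g was not. Both genes were lower in KO without overlap, their intervals overlap, and the difference between them was not tested. The windows come from RefSeq on GRCm38.p6, hold 250 bases before and 50 after the start, and read 5′ to 3′ on the strand of the gene. Capitals mark matches, on either strand, to AGGAAG (ETS factors), TGTGGT (RUNX), CTTTGA (TCF and LEF factors) or CAGCTG (E proteins). The factors named are families of T lineage regulators. Only these exact letters were searched, and other forms that the same factors bind were not.
Cd3g, chr9:44980382-44980681, minus strand: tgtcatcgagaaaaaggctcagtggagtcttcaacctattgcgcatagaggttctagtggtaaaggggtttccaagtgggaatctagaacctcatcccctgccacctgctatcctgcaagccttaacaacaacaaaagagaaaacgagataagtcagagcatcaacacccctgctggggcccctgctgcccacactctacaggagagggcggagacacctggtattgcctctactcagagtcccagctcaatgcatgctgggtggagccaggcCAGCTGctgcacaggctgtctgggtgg
Cd3d, chr9:44981536-44981835, plus strand: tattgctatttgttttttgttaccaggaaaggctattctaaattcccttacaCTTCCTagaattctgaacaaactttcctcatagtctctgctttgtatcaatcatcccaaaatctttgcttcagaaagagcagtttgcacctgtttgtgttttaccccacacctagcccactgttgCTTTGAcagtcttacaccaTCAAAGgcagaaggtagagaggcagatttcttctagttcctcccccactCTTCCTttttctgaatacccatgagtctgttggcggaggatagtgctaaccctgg
The Cd3d window held 2 ETS matches, the nearer starting 5 bases before the start site, and 2 TCF/LEF matches, starting 73 and 54 bases before it. The Cd3g window held a single match to the letters searched, CAGCTG, 23 bases past the start. Among all 32851 windows of the same length, 35.4% held the ETS letters, 16.8% RUNX, 16% TCF/LEF and 16.3% the E protein letters. Of the 12 windows of the 9 genes, some of which have several starts, 9 held ETS, 3 RUNX, 4 TCF/LEF and 2 E protein letters. A match is a description of the letters and shows no binding.

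Lck, a Src family kinase tethered to the CD4 and CD8 coreceptors, starts the signal. Lck (ENSMUSG00000000409, chr4:129548344-129573641, minus strand) was at 416 and 387 FPKM in KO libraries and 327 and 320 FPKM in WT libraries. It was higher in both KO libraries (log2 fold change 0.31, SE 0.08, 95% interval 0.11 to 0.51, adjusted p = 0.0377) and became the most abundant of the 9 genes by mean there, although its KO values overlapped those of Lat. The call was lost without KO replicate 1 (adjusted p = 0.274), KO replicate 2 (0.139), WT replicate 1 (0.0623) or WT replicate 2 (0.0672), without the low-value filter (0.0812), without limma's trend (0.0682) and with the replicate number as a block (0.0562).

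Zap70 (ENSMUSG00000026117, chr1:36761798-36782818, plus strand), the kinase recruited to the phosphorylated chains, was at 149 and 131 FPKM in KO libraries and 135 and 127 FPKM in WT libraries. KO replicate 2 lay between the WT libraries, and no difference was called (log2 fold change 0.10, 95% interval -0.14 to 0.33, adjusted p = 0.471). The ratio of Lck to Zap70 was 2.79 and 2.96 in KO and 2.43 and 2.52 in WT.

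Lat (ENSMUSG00000030742, chr7:126363824-126369570, minus strand), the membrane scaffold, was at 394 and 403 FPKM in KO libraries and 371 and 326 FPKM in WT libraries. The KO values were higher without overlap, but the WT libraries lay far apart from each other, and it did not pass (log2 fold change 0.20, 95% interval -0.03 to 0.43, adjusted p = 0.159). Lat passed under quantile normalization (log2 fold change 0.30, adjusted p = 0.0397) and under equal totals (0.36, adjusted p = 0.0283). Lcp2 (ENSMUSG00000002699, chr11:34046920-34092295, plus strand), which encodes the HPK1 substrate SLP-76, was at 129 and 116 FPKM in KO libraries and 106 and 109.9 FPKM in WT libraries. Its KO values were slightly higher without overlap, and the difference was not called (log2 fold change 0.18, 95% interval -0.04 to 0.39, adjusted p = 0.177), passing under equal totals alone among the 15 alternatives (0.33, adjusted p = 0.0333).

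Grap2 (ENSMUSG00000042351, chr15:80572594-80652854, plus strand) encodes GADS, which bridges SLP-76 to LAT. It was at 100.5 and 93.9 FPKM in KO libraries and 65.6 and 62.7 FPKM in WT libraries. It was the least abundant of the 9 genes in both genotypes and had the largest fold change among them, at 0.59 (SE 0.08, 95% interval 0.39 to 0.79, adjusted p = 0.0087), a mean 1.51 times that of WT. Across the 15 alternatives the log2 fold change was 0.54 to 0.75, and the call was lost only without KO replicate 1 (adjusted p = 0.0773). A level such as that of Grap2, in a 2-kb gene, rests on about 3900 and 3800 fragments in KO libraries and 2500 and 2200 in WT libraries. The counting error alone is then 1.6% to 2.1% per library. Across genes, replicate libraries differed by more than counting error (chi-square per degree of freedom 5.58 for KO and 11.6 for WT). Beside its partner, the ratio of Grap2 to Lcp2 was 0.779 and 0.811 in KO libraries and 0.617 and 0.571 in WT libraries, which was not tested. The ratio of Map4k1 RNA to Lcp2 was 0.160 and 0.229 in KO and 0.460 and 0.375 in WT.

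**Figure D3:**
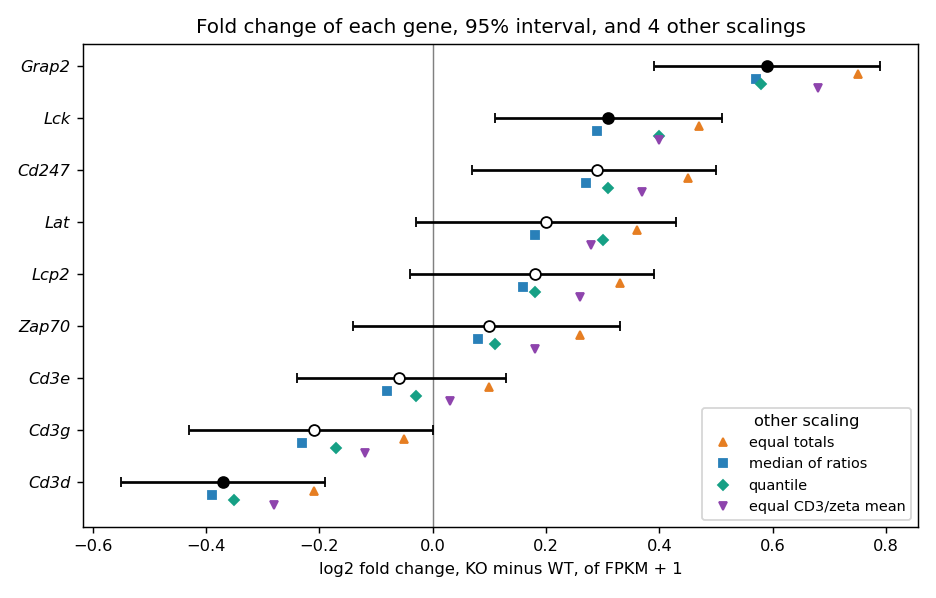
Log2 fold change of each gene, KO minus WT, with its 95% interval from limma; filled circles passed the threshold, and coloured symbols below them give the same value under 4 other scalings. Grap2, Lck, Cd247, Lat, Lcp2 and Zap70 are above 0 and Cd3d and Cd3g below 0 under every scaling drawn, and Cd3e changes sign.

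The windows around the starts of the genes of the SLP-76 and GADS pair are given because Grap2 was called and Lcp2 was not. Both genes were higher in KO without overlap, and the difference between them was not tested. The RefSeq start of Grap2 used here lies inside the longer span that GENCODE gives the gene. Windows and capitals are as for the CD3 genes.
Lcp2, chr11:34046678-34046977, plus strand: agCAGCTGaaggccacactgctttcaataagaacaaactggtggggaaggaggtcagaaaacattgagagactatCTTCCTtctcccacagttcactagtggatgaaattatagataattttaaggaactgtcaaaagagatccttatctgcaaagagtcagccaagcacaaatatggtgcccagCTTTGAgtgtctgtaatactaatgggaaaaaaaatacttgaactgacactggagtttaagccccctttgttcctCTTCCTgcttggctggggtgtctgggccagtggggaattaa
Grap2, chr15:80623233-80623532, plus strand: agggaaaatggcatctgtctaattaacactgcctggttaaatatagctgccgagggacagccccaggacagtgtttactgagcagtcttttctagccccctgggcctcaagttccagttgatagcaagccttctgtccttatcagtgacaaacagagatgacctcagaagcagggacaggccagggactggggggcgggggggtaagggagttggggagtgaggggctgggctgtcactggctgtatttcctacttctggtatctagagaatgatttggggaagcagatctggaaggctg
The Lcp2 window held 2 ETS matches, a TCF/LEF match and an E protein match, and the Grap2 window held none of these letters. The absence of the letters from this window says nothing about the factors.

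The order of the 9 genes by FPKM was similar in the genotypes. In KO libraries it ran Lck, Lat, Cd3g, Cd247, Cd3d, Cd3e, Zap70, Lcp2 and Grap2, and Lck and Lat, Cd247 and Cd3d, and Cd3e and Zap70 were neighbours whose libraries overlapped. In WT libraries it ran Lat, Cd3g, Lck, Cd3d, Cd247, Cd3e, Zap70, Lcp2 and Grap2, and Lat and Cd3g, Cd3g and Lck, and Cd247 and Cd3e overlapped. The genes with the pattern nearest to Grap2 over the 4 libraries, by Euclidean distance of centred log2 values, were Iigp1 (distance 0.0199), Bckdk (0.0205) and Rbl1 (0.0213). Nearest to Lcp2 were Rbm33 (0.0110), Ppp4r3b (0.0166) and Dyrk3 (0.0200). With 4 libraries this likeness is only a description.

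Lck is held off by CSK and released by the phosphatase CD45. Of 10 tested genes for coreceptors and regulators of Lck, 4 rose and 1 fell, beside 15.4% higher and 13.0% lower over all genes, with a median log2 fold change of 0.18; without KO replicate 1 these counts were 0 and 0, without KO replicate 2 they were 1 and 0, and without the low-value filter 2 and 0. Csk, the inhibitory kinase, was at 137 and 135 FPKM in KO and 107 and 93.8 FPKM in WT (log2 fold change 0.44, SE 0.09, adjusted p = 0.0239). Pag1, the membrane adaptor that docks CSK, was at 20.6 and 18.5 FPKM in KO and 11.9 and 11.6 FPKM in WT (log2 fold change 0.68, adjusted p = 0.00996). Ptpn6, the phosphatase SHP-1, was at 168 and 173 FPKM in KO and 123 and 124 FPKM in WT (log2 fold change 0.46, adjusted p = 0.0117). Ptpn22, an inhibitory phosphatase of the same list, was not called, at 74.9 and 73.2 FPKM in KO and 75.9 and 86.9 FPKM in WT (adjusted p = 0.329). The activating phosphatase gene Ptprc (CD45), named after its values were seen, as was Ptpn22, was higher, at 1100 and 942 FPKM in KO and 556 and 709 FPKM in WT (log2 fold change 0.70, adjusted p = 0.0241). Unc119, whose protein binds the lipid anchor of Lck, fell, with 26.0 and 26.9 FPKM in KO and 52.4 and 40.3 FPKM in WT (log2 fold change -0.77, adjusted p = 0.0161). Cd8a, Cd8b1 and Cd4 did not pass (adjusted p = 0.13, 0.0756 and 0.319). Pag1 lost its call without KO replicate 1 (adjusted p = 0.0798), Csk, Ptpn6 and Unc119 without either KO library (up to 0.146, 0.0956 and 0.0837), and Ptprc also without WT replicate 1 (up to 0.126). Without the low-value filter Csk, Unc119 and Ptprc were not called (adjusted p = 0.0768, 0.0805 and 0.11).

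Among surface partners of the receptor, 3 of 7 tested genes rose and 2 fell, beside 15.4% higher and 13.0% lower over all genes, and their median log2 fold change was 0.37. Without KO replicate 1, or without KO replicate 2, none rose and 1 fell, and 1 fell without either WT library, and without the low-value filter 1 rose and none fell. Trat1, the transmembrane adaptor TRIM that associates with zeta, had the deepest fall, with 2.12 and 1.43 FPKM in KO and 5.63 and 7.19 FPKM in WT (log2 fold change -1.42, SE 0.19, adjusted p = 0.00806), and kept its call without each library in turn but lost it without the low-value filter (adjusted p = 0.0572). Cd5, a surface receptor that dampens receptor signals, rose to 33.9 and 33.8 FPKM in KO, against 25 and 21.7 FPKM in WT (log2 fold change 0.52, adjusted p = 0.019). Sit1, an adaptor that binds SHP phosphatases, was at 30.1 and 27.6 FPKM in KO and 20.9 and 17.5 FPKM in WT (log2 fold change 0.57, adjusted p = 0.0225). Cd2, an adhesion receptor, was at 244 and 257 FPKM in KO and 165 and 177 FPKM in WT (log2 fold change 0.54, adjusted p = 0.0103). Lax1, named after its values were seen, was the other gene that fell. It was at 23.1 and 19.9 FPKM in KO and 27.8 and 31.0 FPKM in WT (log2 fold change -0.43, limma adjusted p = 0.0398). Trat1 was the gene that still fell without each library in turn, so Lax1 was not called in those fits. Calls of Cd5, Sit1 and Cd2 were lost without either KO library (adjusted p up to 0.114, 0.137 and 0.0766), and those of Cd5 and Sit1 also without the filter (0.0669 and 0.0842).

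Enzymes and adaptors that dock on LAT, SLP-76 or GADS mostly did not pass. Of 17 tested genes 1 rose and 1 fell, beside 15.4% higher and 13.0% lower over all genes, 15 did not pass, and the median log2 fold change was -0.03. Without KO replicate 1, without KO replicate 2 or without the low-value filter none passed, and without WT replicate 1 and WT replicate 2 the counts were 2 and 1 higher and 0 and 2 lower. Themis, a T cell adaptor that binds GRB2, rose to 63.9 and 64.4 FPKM in KO, against 41.6 and 48.5 FPKM in WT (log2 fold change 0.50, adjusted p = 0.0205; up to 0.114 without either KO library). Sh3bp2, an adaptor of Syk family kinases, was at 27.2 and 24.1 FPKM in KO and 34.2 and 32.9 FPKM in WT (log2 fold change -0.38, adjusted p = 0.038), a call that did not survive the removal of any 1 library (up to 0.223). Under equal totals 4 of the 17 rose and none fell. Next to this assembly, none of 9 tested genes from Rasgrp1 to Inpp5d passed with limma, with fold changes between -0.33 and 0.27. The nearest were Bcl10, a link to NF-kappa B (18.2 and 20.2 FPKM in KO, 24.1 and 24.4 FPKM in WT, adjusted p = 0.0507), and Prkcq, the kinase PKC theta (73.4 and 68.4 FPKM in KO, 57.1 and 60 FPKM in WT, adjusted p = 0.0589). Both had an unadjusted p under 0.05 (0.0145 and 0.0183), as did Rasgrp1 (0.0232) and Rasa1 (0.0355). Bcl10 passed under 4 of the 15 alternatives and Prkcq under 2.

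HPK1 phosphorylation of SLP-76 makes a docking site for 14-3-3 proteins, and CUL7 is the scaffold of a ubiquitin ligase reported to act on HPK1. Of 11 tested genes of this list, which contains Map4k1 itself, 2 rose and 2 fell, beside 15.4% higher and 13.0% lower over all genes, with a median log2 fold change of 0.04. Without KO replicate 1, or without the low-value filter, none passed, without KO replicate 2 none rose and 1 fell, and 1 fell without either WT library. Ywhaq, 14-3-3 theta, was at 163 and 168 FPKM in KO and 130 and 121 FPKM in WT (log2 fold change 0.40, adjusted p = 0.0205). Ywhae, 14-3-3 epsilon, was at 779.9 and 776 FPKM in KO and 514 and 603 FPKM in WT (log2 fold change 0.48, adjusted p = 0.0239). Both were higher in each KO library than in either WT library, and the other 5 tested 14-3-3 genes did not pass. Cul7 was low and fell, with 1.43 and 1.82 FPKM in KO and 3.25 and 3.38 FPKM in WT (log2 fold change -0.72, adjusted p = 0.022). Fbxw8 and Ppp4c of the same list overlapped between genotypes and were not called (limma adjusted p = 0.815 and 0.674). Fbxw8 was at 20.2 and 19.1 FPKM in KO and 21.1 and 17.2 FPKM in WT. Ywhaq and Ywhae lost their calls without either KO library (adjusted p up to 0.135 and 0.137), and Cul7 without any 1 of the 4 libraries (up to 0.132).

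**Figure D4:**
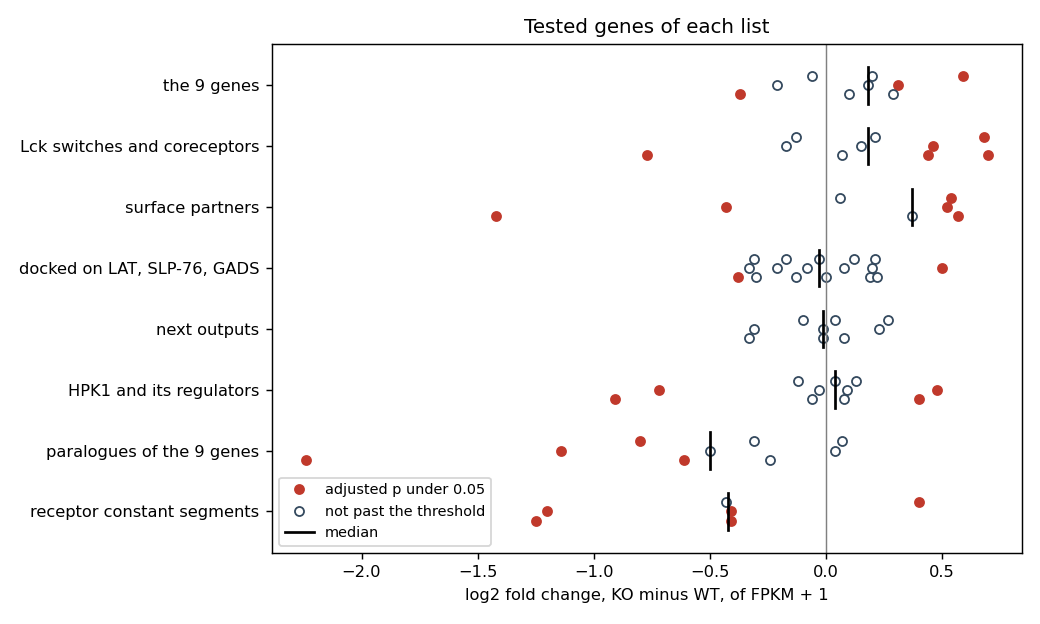
Log2 fold change, KO minus WT, of every tested gene in the 9 genes and in 7 lists around them; filled points passed the threshold, open points did not, and a black bar marks each median. The 9 genes lie between -0.37 and 0.59, while the paralogues reach down to -2.24 (Fcer1g) and have no gene called higher.

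Relatives of Cd247, Lck, Zap70, Lat, Lcp2 and Grap2, several of which serve other blood cells, were lower in KO, not called or too low to test. Of 9 tested paralogues 4 fell and none rose, beside 13.0% lower and 15.4% higher over all genes, with a median log2 fold change of -0.50; 2 fell without KO replicate 1, 3 without KO replicate 2, and 2 without WT replicate 1 or without the low-value filter. Fcer1g, the relative of zeta that serves Fc receptors and innate-like lymphocytes, was at 10.9 and 13.0 FPKM in KO and 56.2 and 63.8 FPKM in WT (log2 fold change -2.24, SE 0.12, adjusted p = 0.000951). Its ratio to Cd247 was 0.0558 and 0.0737 in KO and 0.379 and 0.410 in WT. Lat2, the relative of LAT best known in B cells, mast cells and NK cells, was at 35.3 and 30.9 FPKM in KO and 77.9 and 70.7 FPKM in WT (log2 fold change -1.14, SE 0.10, adjusted p = 0.00354), and its ratio to Lat was 0.0895 and 0.0766 in KO and 0.210 and 0.217 in WT. Both calls held in all 15 alternatives. The Src family genes Fgr and Lyn were at 2.58 and 2.20 and at 1.41 and 2.39 FPKM in KO and at 4.0 and 4.36 and at 3.96 and 4.04 FPKM in WT (adjusted p = 0.0263 and 0.0347). The call of Fgr was lost without any 1 of the 4 libraries (up to 0.138), and that of Lyn without KO replicate 1 or either WT library (up to 0.145), and without the filter both were lost (0.0935 and 0.131), as was Lyn under an equal mean of the chain genes. Syk, the relative of Zap70, was too low to be tested, at 0.219 and 0.268 FPKM in KO and 0.744 and 0.888 FPKM in WT. Relatives that T cells also use were not called, with Fyn at 167 and 151 FPKM in KO and 154 and 147 FPKM in WT (adjusted p = 0.552), and Grap, the relative of GADS, at 57.2 and 58.4 FPKM in KO and 73.6 and 63.9 FPKM in WT (adjusted p = 0.112). The ratio of Grap to Grap2 was 0.569 and 0.622 in KO and 1.12 and 1.02 in WT.

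**Figure D5:**
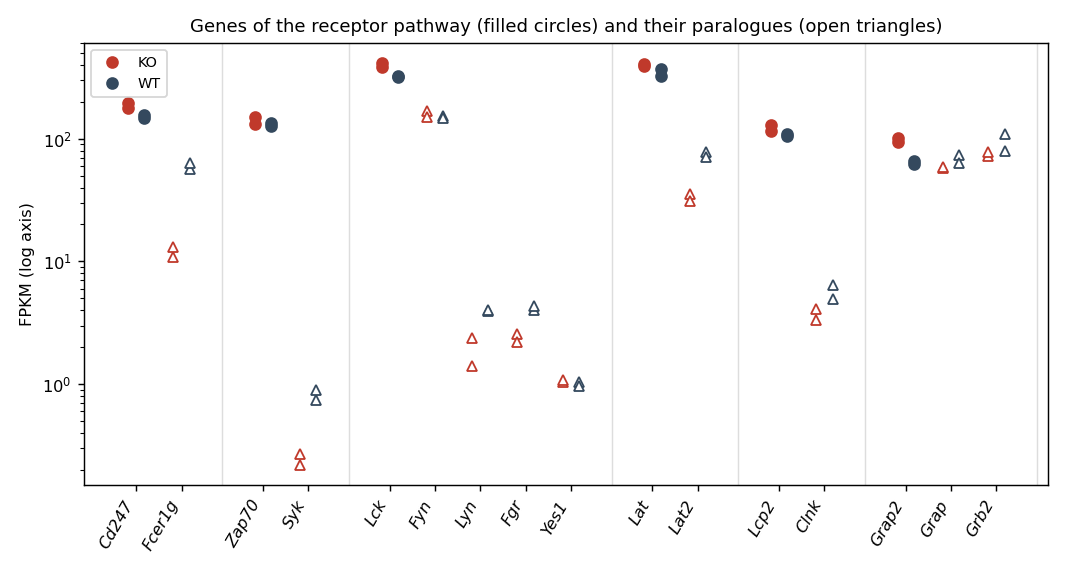
FPKM on a log axis, 1 point per library with KO left of WT, for 6 of the genes (filled circles) and their relatives (open triangles). Fcer1g, Lat2 and Syk are lower in both KO libraries, while Cd247, Lat and Zap70 beside them differ little on this scale.

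Some markers of other cells were also called lower in KO, and others were not called or were too low to test. The 4 constant segments listed for gamma delta T cells summed to 26.2 and 23.8 FPKM in KO and 48.5 and 55.4 FPKM in WT. These sums were mostly from the gamma segments Tcrg-C1 and Tcrg-C2, so they describe gamma segment RNA and do not count gamma delta T cells. All 3 tested fell, beside 13.0% lower over all genes, Tcrg-C1 narrowly (limma adjusted p = 0.0477). Trdc, the delta constant segment, was too low to test, at 0.332 and 0.571 FPKM in KO and 0.943 and 1.04 FPKM in WT. The 4 NK cell genes summed to 79.2 and 83.0 FPKM in KO and 106 and 95.7 FPKM in WT, mostly from Eomes, which activated CD8 T cells also express; 1 of 3 tested fell (Klrb1c), and Ncr1, which defines NK cells, was listed at 0 in both KO libraries and at 0.0767 and 0.0821 FPKM in WT. Genes of mast cells and platelets, which also use SLP-76 and GADS, summed over 4 of 5 to 2.31 and 2.12 FPKM in KO and 6.90 and 5.88 FPKM in WT. Kit, which alone was tested and made up most of the WT sums, fell and was at 1.40 and 0.633 FPKM in KO and 5.58 and 5.05 FPKM in WT. Itga2b (0.875 and 0.619 FPKM in KO, 1.1 and 0.664 FPKM in WT) overlapped between genotypes. Pf4 also overlapped (0 and 0.799 FPKM in KO, 0.136 and 0 FPKM in WT). Cpa3 was near 0, at 0.0374 and 0.0724 FPKM in KO and 0.0776 and 0.166 FPKM in WT. The 6 macrophage and monocyte genes summed to 4.31 and 2.70 FPKM in KO and 4.82 and 4.35 FPKM in WT, mostly Cd68, which was not called. Of the untested genes of that list Csf1r, Adgre1 and Lyz2 were at or near 0 in all 4 libraries, while Cd14 was at 0.0678 and 0 FPKM in KO and 0.563 and 0.301 FPKM in WT and Itgam at 0.246 and 0.226 FPKM in KO and 0.423 and 0.553 FPKM in WT, both without overlap. Only Cd79a and Cd79b of 6 B cell genes had values, which summed to 4.96 and 4.55 FPKM in KO and 3.93 and 4.49 FPKM in WT. The 3 regulatory T cell genes summed to 268 and 262 FPKM in KO and 281 and 309.8 FPKM in WT, mostly Il2ra, which activated T cells also express. Of these Il2ra and Ikzf2 were not called (adjusted p = 0.304 and 0.123), and Foxp3, the defining gene, fell, with 0.128 and 0.228 FPKM in KO and 5.40 and 4.65 FPKM in WT. The 4 dendritic cell genes summed to 38.7 and 42.9 FPKM in KO and 55.2 and 46.6 FPKM in WT, nearly all from Batf3, which was not called (adjusted p = 0.185). The other dendritic cell genes were too low to test and lower in KO without overlap, with Flt3 at 0 and 0.0379 FPKM in KO and 0.821 and 1.31 FPKM in WT, Zbtb46 at 0.0761 and 0.112 FPKM in KO and 1.12 and 0.968 FPKM in WT, and Xcr1 at 0.201 and 0.327 FPKM in KO and 0.900 and 0.885 FPKM in WT. The 4 genes of epithelium or melanoma summed to 2.40 and 2.16 FPKM in KO and 6.91 and 7.58 FPKM in WT, mostly Epcam, which fell (log2 fold change -1.41, adjusted p = 0.00318). Krt8 and Mlana of that list were at or near 0 in all libraries apart from Mlana at 0.123 FPKM in WT replicate 1. The 4 genes of fibroblasts and endothelium, mostly Pecam1, summed to 12.7 FPKM in each KO library and 13.2 and 18.3 FPKM in WT, and none was called. Of 3 neutrophil genes 2 had values, which summed to 1.39 and 1.72 FPKM in KO and 2.41 and 2.39 FPKM in WT. Nearly all of this was Ly6g, which was not called (limma adjusted p = 0.0554). S100a8 was at 0 and 0.195 FPKM in KO and at 0 in both WT libraries. The part of these cells in the lower Fcer1g and Lat2 was not tested.

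The antigen-binding chains themselves differed by locus. Trac, the alpha constant segment, rose to 423 and 399 FPKM in KO, against 302 and 322 FPKM in WT (log2 fold change 0.40, adjusted p = 0.022; up to 0.177 without either KO library, and 0.0648 without the low-value filter). The beta constant segments Trbc1 and Trbc2 were at 368 and 365 and at 704 and 748 FPKM in KO and at 563 and 435 and at 1015 and 915 FPKM in WT, and Trbc2 was called lower (log2 fold change -0.41, adjusted p = 0.027). These segments are near-identical, so the split of reads between them is uncertain, and the call of Trbc2 was lost under 4 other settings, equal totals among them, and without each library but WT replicate 2 (up to 0.192). The gamma segments Tcrg-C2, at 14.3 and 13.6 FPKM in KO and 30.8 and 36.3 FPKM in WT, and Tcrg-C4, at 1.66 and 1.25 FPKM in KO and 4.29 and 5.44 FPKM in WT, fell (log2 fold change -1.20 and -1.25, adjusted p = 0.00368 and 0.00864). Both kept their calls without each library in turn, and Tcrg-C4 lost it without the low-value filter (adjusted p = 0.0564). Of the 6 tested constant segments 1 rose and 4 fell, beside 15.4% higher and 13.0% lower over all genes, with a median log2 fold change of -0.42. Without the low-value filter none rose and 1 fell. Without KO replicate 1, or without KO replicate 2, none rose and 2 fell, and without WT replicate 1 the number that fell was 2.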

How the data were processed

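Libraries of tumour-infiltrating T cells (2 KO, 2 WT) had been made with the NEBNext Ultra RNA kit from Trizol-extracted RNA, per the labels' protocols. The authors deposited FPKM values per Ensembl gene, 1 column per library, and the submitters' processing notes name HISAT, Cuffnorm and GRCm38. Versions, annotation, strand setting and library scaling are not given in the sources used here. Cuffnorm can rescale libraries, which would shift fold changes nearly alike, apart from those of low genes. Summed FPKM was 871584.3 and 878584.5 in KO libraries and 975046.9 and 975106.9 in WT libraries. Symbols and positions came from GENCODE M21 for 21011 of 21146 IDs.

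Values were taken as log2(FPKM + 1), which understates changes of low genes. The 11947 genes that reached 1 FPKM in 2 or more libraries were fitted with limma 3.58.1 in R 4.3.3 (trend, empirical Bayes, two-sided), KO minus WT, with Benjamini-Hochberg adjustment over all of them. The script was tested on simulated data. Fragment scales were estimated from steps between values of single-transcript genes of 1000 to 6000 nt, less a fragment length of 260 nt; 90.7% to 91.8% of low values lay within 0.1 of a whole number, on a scale chosen to make them so. On it, replicate pairs differed by more than sampling noise (chi-square per degree of freedom 5.58 for KO and 11.6 for WT). Tables were made in Python 3.11.15 (pandas 2.3.3, numpy 2.4.6) and plots with matplotlib 3.10.9.

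The 9 genes, the lists around them, the markers and the motifs were chosen with earlier results of these data known. From each list up to 4 genes past the threshold with the lowest p were named, or the 2 lowest if none passed. Other genes named, such as coreceptors, relatives, markers, Lax1, Fbxw8 and Ppp4c, are shown for context and were chosen after their values were seen. Alternatives covered the pseudocount, the filter, 4 scalings, the variance model, a replicate block and each library left out.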

Additional observations from a re-analysis of the deposited data

How the results depend on the processing

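The 9 genes and Map4k1 under 15 alternatives gave 150 log2 fold changes, of which 129 kept their direction and their side of the threshold, 14 lost the call, 5 gained it and 2 turned sign, both for Cd3e (0.10 under equal totals and 0.03 under an equal mean of the chain genes). Setting library totals equal, mitochondrial, haemoglobin and immunoglobulin genes left out, moved the median of all genes by 0.143 on the log2 scale and gave 5 of the 9 genes higher and 0 lower, with 3475 higher and 1118 lower among all genes, 75.7% of calls higher in place of 54.2%. An equal mean of the chain genes gave 3 higher and 0 lower (2486 and 1104 among all genes, 69.2% of calls higher). With no filter on low values 1 of the 9 was higher, and 609 genes were higher and 622 lower in all, out of more genes tested. The fit without limma's trend and the replicate block each left 1 gene higher. The replicate number was not shown to pair libraries: deviations of same-numbered libraries correlated at -0.0321, and the block gave 1453 higher and 1348 lower genes. Leaving out each library in turn, which assumes that a lone library varies like the other pair, gave 0 to 1 of the 9 genes higher and 0 to 1 lower, and 189 to 1693 higher and 390 to 1542 lower genes in all, lowest without KO replicate 1. Apart from Map4k1, 21 genes of the surrounding lists passed and were named for their low p. Of these, some kept the call without each library in turn, 6 under the other 11 alternatives and 3 under every alternative, and none changed direction. List counts fell most without KO replicate 1 and without the low-value filter, and the counts of higher genes grew for 4 of the 7 lists under equal totals. Alternatives for the lists were added after seeing the data. With 2 libraries a genotype, differences under about 0.3 on the log2 scale were mostly not called among the 9 genes.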
